A study of Mus musculus with 2 samples.

Results

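Messenger RNA levels of 124 mouse genes for splicing factors, RNA helicases and other RNA-binding proteins were compared between EB cells and ES cells on bead arrays. The rule that picks the genes uses their names and no measured value. Their current symbols start with 1 of 23 prefixes (among them Srsf, Hnrnp, Snrp, Rbm, Ddx and Igf2bp), and Ddx58 was left out. They are 124 of the 8102 genes that the probe identifiers allowed to be named. A further 124 genes whose symbols fit the prefixes, among them Lin28a, Mbnl1, Esrp1, Igf2bp2 and Ddx3x, had no probe named in this way and are not analysed here.

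The EB group was 1 sample at day 4 and the ES group 1 sample at day 0, each of total RNA on 1 array. The labels name mouse EB cells and mouse ES cells, abbreviations that usually stand for embryoid bodies and embryonic stem cells. They give no strain, line, medium or genotype. With 1 sample a group no difference could be tested, and culture, array and day cannot be told apart. In bulk RNA, fewer cells of a type and less RNA per cell cannot be told apart either.

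As background, the spliceosome assembles on each intron from small nuclear RNAs held in rings of Sm and LSm proteins. SR proteins and hnRNPs bind exons and introns and steer the choice of splice site, while DEAD-box and DEAH-box helicases remodel RNA at nearly every step from transcription to decay. Most of this machinery is made in all dividing cells. A smaller set of regulators, such as the ESRP, CELF, MBNL, RBFOX, ELAVL, LIN28 and IGF2BP families, has many members tied to particular tissues or developmental stages.

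Of 46643 probes on each array 9796 carried a matched gene number, and 165 of these belonged to the 124 genes. A signal is the mean over the beads of a probe, after quantile normalization of both arrays to 1 distribution. A median of 35 beads lay behind a signal of these probes in either sample, and their median bead error above the floor was 4.30% in EB and 4.15% in ES. The signal floor was 230.0, the normalized signal at which the EB detection score passed 0.99, and the same value served for ES. The labelled cells were set beside marker genes. These lists were chosen with earlier results of these data known, so they are no independent check of the labels. Of 11 measured pluripotency genes 10 were lower in EB by at least 2-fold (the exception was Tdgf1), and 10 of 10 genes of early differentiation were higher. Of 7 fibroblast genes, Col1a2, Col3a1, Dcn, Postn and S100a4 were under the floor in both arrays. Col1a1 had signals of 1007 in EB and 2602 in ES, and Fbln2 had 2205 in EB and 365 in ES. The part of fibroblasts in the results below was not tested.

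Few of the RNA-processing genes differed widely between EB and ES. Of the 124 genes 92 lay above the floor in at least 1 array and 83 in both. In all, 3 of the 92 (3.26%) differed by at least 2-fold, against a background of 9.08% (351 of 3867 named genes above the floor). Rbmx and Igf2bp3 were higher in EB (2 genes, background 3.72%) and Hnrnpa3 was lower (1 gene, background 5.35%). The median log2 difference, EB minus ES, was 0.09 over the 92 genes and 0.06 over all 3867. A positive difference was found in 56 of the 92 and in 2140 of the 3867. The quartiles of the differences were -0.19 and 0.33 for the 92 genes and -0.26 and 0.35 for all 3867. The passing genes are those bright enough to be compared, so the counts do not speak for the other 32.

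A 1.5-fold limit was passed by 16 of the 92 genes (17.4%), against 24.4% of all named genes. Of these, 10 were higher in EB (background 12.4%) and 6 lower (background 12%). Counts take signals as measured, also under the floor, for these genes and for all named genes. Rbm3 (higher) and Elavl3 (lower) are therefore included, though against the floor they differ by at least 1.25-fold and 1.27-fold. RNA-processing genes were more often bright: 74.2% of the 124 genes and 47.7% of all named genes were above the floor. Genes with a mean signal of at least 4 times the floor were therefore also counted apart. Among these, 2 of 60 passed the 2-fold limit, against 7.24% of 1630, namely Igf2bp3 among the higher (background 3.13%) and Hnrnpa3 among the lower (4.11%). The 1.5-fold limit was passed by 8 of 60, against 20.6%, with 4 higher (10.7%) and 4 lower (9.94%). The median size of the log2 difference, whatever its sign, was 0.23 for the 60 and 0.28 for the 1630. These shares describe 2 arrays and were not tested.

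**Figure D1:**
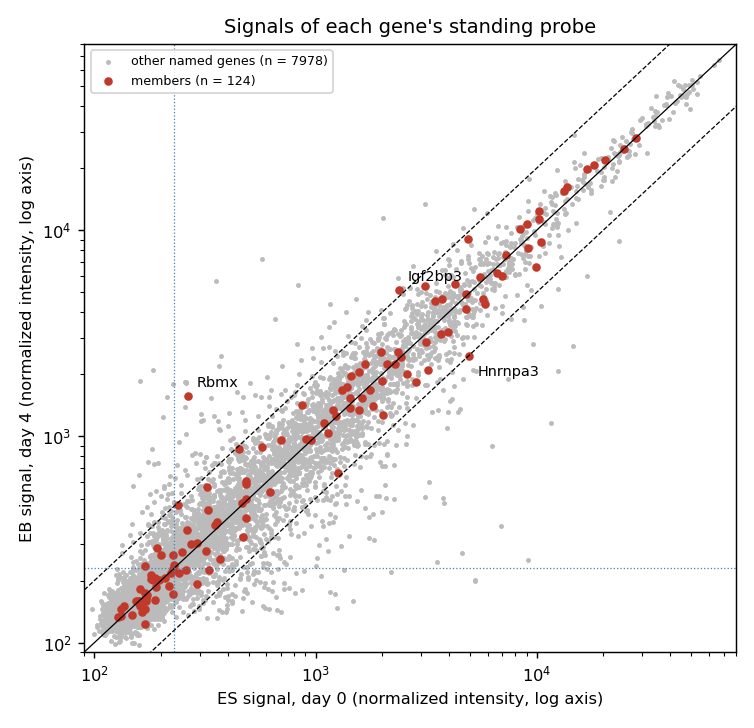
EB signal (y axis) against ES signal (x axis) of the probe that stands for each gene, in normalized intensity on log axes. Red points are the 124 RNA-processing genes and grey points the other 7978 named genes; the solid line marks equal signals, dashed lines a 2-fold difference and dotted lines the signal floor of 230.0. Most red points lie between the dashed lines, and Rbmx is the one far above them.

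The promoters of 5 genes are shown because the results turn on them: the 3 genes past the 2-fold limit, and the neighbours Rbm4 and Rbm4b, whose signals were both higher in EB. Each window runs from 250 bases before to 50 after the annotated start, 5′ to 3′ on the gene's strand, from RefSeq on GRCm38.p6. The windows are Rbmx (chrX:57392987-57393286, minus strand), Igf2bp3 (chr6:49214905-49215204, minus strand), Hnrnpa3 (chr2:75659009-75659308, plus strand), Rbm4 (chr19:4793960-4794259, minus strand, the first of 2 listed starts) and Rbm4b (chr19:4756275-4756574, plus strand). Capitals mark matches on either strand to 4 short motifs: the TATA box (TATAAA), the E-box core (CACGTG), the CCAAT box (CCAAT) and the GC box (GGGCGG).
Rbmx: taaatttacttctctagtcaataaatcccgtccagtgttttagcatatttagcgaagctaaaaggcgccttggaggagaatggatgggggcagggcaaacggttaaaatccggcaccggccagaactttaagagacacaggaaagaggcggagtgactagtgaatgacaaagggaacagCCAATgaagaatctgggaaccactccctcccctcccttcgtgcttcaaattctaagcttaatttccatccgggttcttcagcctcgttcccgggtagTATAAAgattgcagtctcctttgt
Igf2bp3: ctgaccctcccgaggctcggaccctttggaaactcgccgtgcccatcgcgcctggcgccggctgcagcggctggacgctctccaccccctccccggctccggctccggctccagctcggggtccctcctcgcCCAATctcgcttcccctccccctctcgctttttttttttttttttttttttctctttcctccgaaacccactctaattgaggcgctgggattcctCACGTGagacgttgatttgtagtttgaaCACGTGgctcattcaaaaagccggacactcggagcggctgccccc
Hnrnpa3: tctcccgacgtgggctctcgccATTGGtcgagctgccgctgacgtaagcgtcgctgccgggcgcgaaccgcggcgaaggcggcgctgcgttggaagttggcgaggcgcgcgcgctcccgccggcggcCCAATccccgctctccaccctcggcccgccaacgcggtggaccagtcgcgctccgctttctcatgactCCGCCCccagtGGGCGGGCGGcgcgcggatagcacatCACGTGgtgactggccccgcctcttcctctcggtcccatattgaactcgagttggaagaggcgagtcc
Rbm4: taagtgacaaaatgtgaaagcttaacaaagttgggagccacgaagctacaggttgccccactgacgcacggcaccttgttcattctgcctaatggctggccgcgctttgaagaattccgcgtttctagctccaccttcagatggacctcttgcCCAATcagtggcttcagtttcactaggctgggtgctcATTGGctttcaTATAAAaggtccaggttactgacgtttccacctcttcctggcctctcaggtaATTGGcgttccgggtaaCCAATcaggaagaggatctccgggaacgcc
Rbm4b: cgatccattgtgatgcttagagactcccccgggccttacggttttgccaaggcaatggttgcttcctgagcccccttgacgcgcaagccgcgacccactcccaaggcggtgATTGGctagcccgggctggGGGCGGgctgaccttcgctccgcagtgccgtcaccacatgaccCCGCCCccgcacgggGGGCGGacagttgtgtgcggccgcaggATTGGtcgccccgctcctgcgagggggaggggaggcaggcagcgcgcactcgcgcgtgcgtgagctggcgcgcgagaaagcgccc

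The 5 windows differ in composition. That of Rbmx has a GC content of 47.0% and that of Rbm4 51.3%, and each holds 1 TATAAA match, a run of letters found in 12.6% of member promoters, 11.6% of those of named genes and 13.6% of all. In the Rbm4 window the match begins 49 bases before the annotated start, and in the Rbmx window 26 bases after it. The windows of Igf2bp3 (60.3% GC), Hnrnpa3 (70.3%) and Rbm4b (69.7%) hold none. The E-box core occurs 2 times in the Igf2bp3 window and 1 time in that of Hnrnpa3, genes that differed in opposite directions. It occurs in 10.7% of the promoters of the 103 members found in the table, against 8.79% of 6383 named genes and 7.15% of all 32851 promoters. The CCAAT box occurs in all 5 windows and in 54.4% of member promoters, against 39.4% of those of named genes and 37.4% of all promoters. The GC box occurs in those of Hnrnpa3 and Rbm4b, 3 times each (2 of the matches in Hnrnpa3 overlap), and in 57.3% of member promoters, against 53.0% of those of named genes and 35.7% of all. A match describes the letters and is no evidence of binding.

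Rbmx had the largest difference of the 92 genes. It is an X-linked member of the RBM family, also called hnRNP G, that binds nascent transcripts and takes part in splice site choice. Its 1 probe (identifier scl0019655.2_139-S) had a signal of 1564 in EB, against 265.1 in ES, so the ES signal lay just over the floor. EB was 5.90-fold higher (log2 difference 2.56, bead-level standard error, SE, 0.11). Its difference ranked 14 from the top among the 3867 named genes. The files hold no probe sequences, and Rbmx has related copies. The probe of one of them, Rbmxl1, was under the floor in both samples, with 206.1 in EB and 189.0 in ES. No second probe of Rbmx was named, so no other probe checks the value.

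Igf2bp3 was higher in EB by both of its probes. It encodes an mRNA-binding protein of the IGF2BP family, whose members bind, transport and stabilise transcripts and are best known from embryonic tissue and tumours. The brighter probe read 5125 in EB and 2384 in ES, 2.15-fold higher (log2 difference 1.104, bead-level SE 0.09). Its second probe gave 4772 in EB and 2434 in ES, a log2 difference of 0.97 (0.07), which falls short of the limit. The paralog Igf2bp1 differed the other way, with 6667 in EB and 9973 in ES and a log2 difference of -0.58 (0.06). The differences of the 2 paralogs were 1.68 apart on the log2 scale, with a bead-level standard error of 0.11.

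Hnrnpa3, an hnRNP of the A/B group, was the gene nearest to the limit. Its brighter probe had a signal of 2444 in EB, against 4922 in ES, 2.01-fold lower (log2 difference -1.01, bead-level SE 0.10). The second probe was under the floor in both samples, with 121.0 in EB and 127.6 in ES, and carries no information on the difference. Without quantile normalization the log2 difference was -0.95, and the count of lower genes was then 0. Its closest relatives on the array were under the 1.5-fold limit: Hnrnpa1 gave 0.37 and Hnrnpa2b1 -0.16, and Hnrnpa0 gave 0.10.

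**Figure D2:**
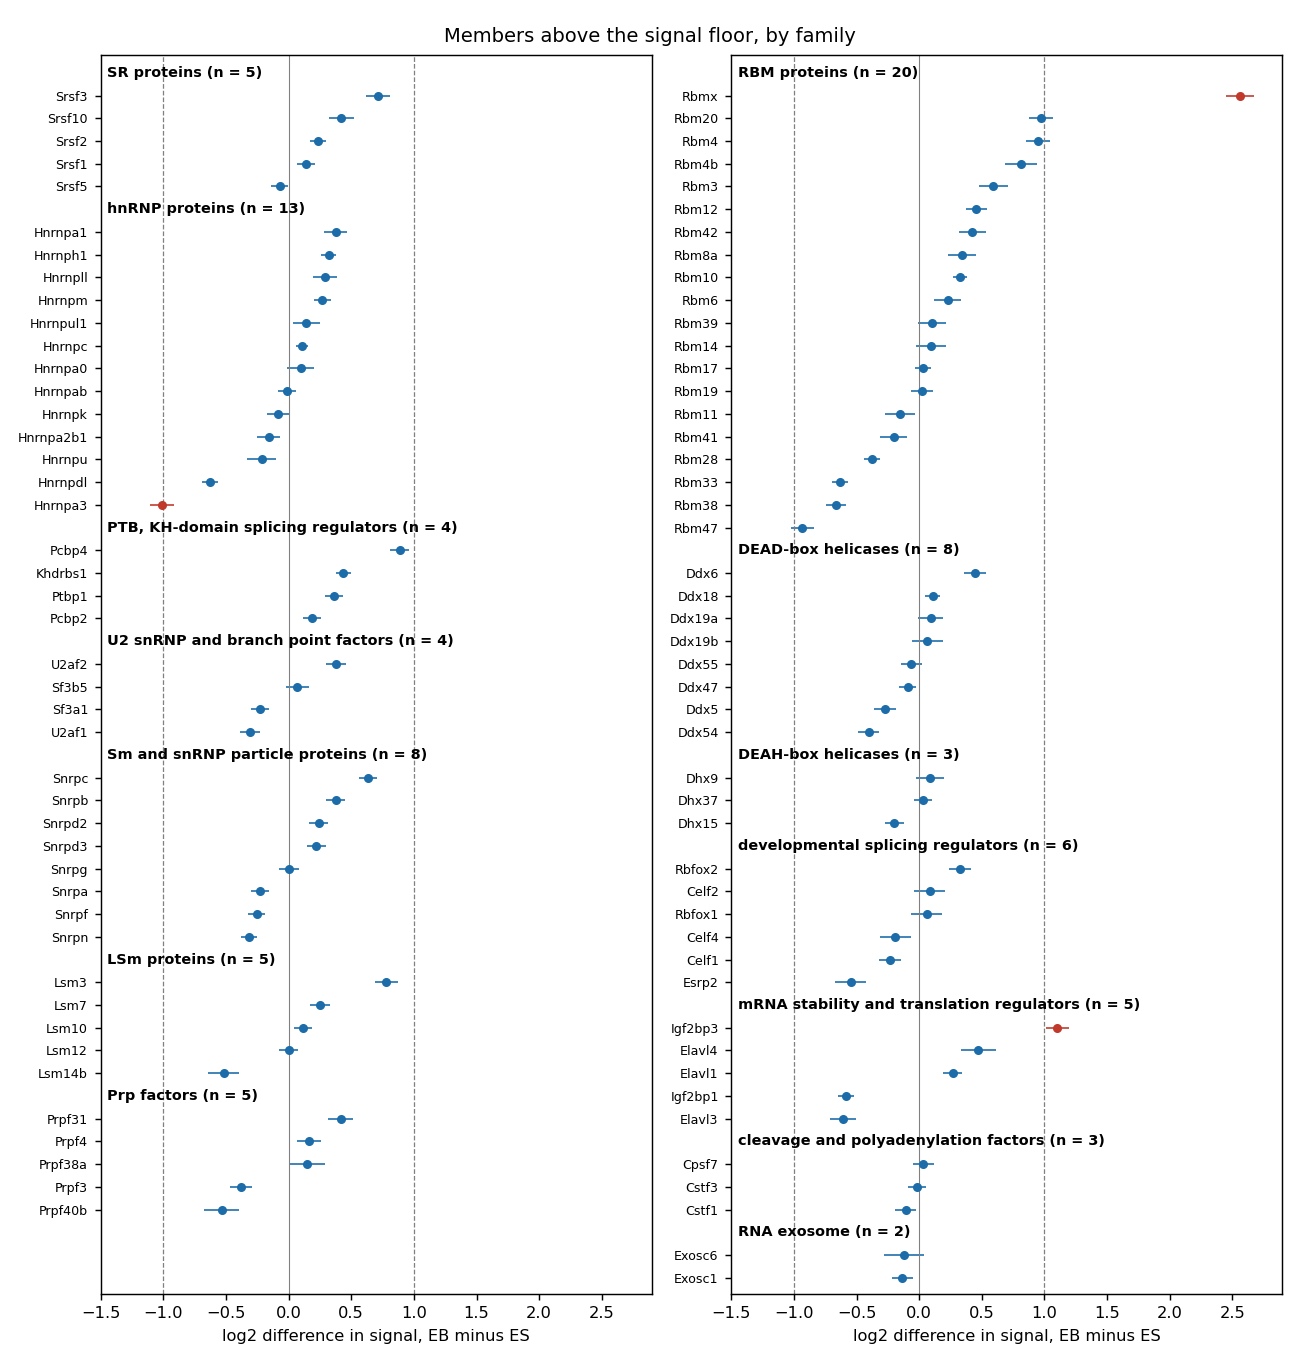
Log2 difference in signal, EB minus ES, of the reported genes above the floor, 1 row per gene, grouped by family (number drawn in brackets); horizontal bars are 1 bead-level standard error and dashed lines mark a 2-fold difference. Red points pass the limit: Rbmx at 2.56, Igf2bp3 at 1.104 and Hnrnpa3 at -1.01.

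Just under the limit stood 5 genes with log2 differences between 0.8 and 1 in size, 4 of them higher in EB. Rbm20, known for splicing titin transcripts in heart muscle, had signals of 467 in EB and 238.2 in ES, a log2 difference of 0.97 (bead-level standard error 0.10). Its ES signal was close to the floor. Rbm4, a regulator of alternative splicing, had 873 in EB and 452 in ES (0.95, standard error 0.10), and its neighbour and near copy Rbm4b had 566 in EB and 322 in ES (0.81, 0.13). Because these copies share sequence and the probe sequences are not given, it was not tested whether their probes read separate transcripts. Pcbp4, a KH-domain protein that binds poly(C) stretches, was bright in both samples, with 9076 in EB and 4910 in ES (0.89, 0.07). On the lower side stood Rbm47, an RNA-binding protein of endoderm and epithelia that helps APOBEC1 edit RNA, with 664 in EB and 1267 in ES (-0.93, 0.09).

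Of these 5 genes, 3 passed the 2-fold limit with another background treatment and 4 in the authors' values, settings under which 12.3% and 25.7% of all named genes passed, against 9.08% as reported. With normexp background correction Rbm20 gave 1.20, Rbm4 1.06 and Rbm47 -1.0, all past the limit, while Pcbp4 (0.89) and Rbm4b (0.95) stayed under it. With the authors' series value table Rbm20 gave 2.34, Rbm4b 1.46, Rbm4 1.36 and Rbm47 -1.17. The bright gene Pcbp4 gave 0.91 there.

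Of the RBM family, 20 of 28 genes were above the floor. A positive difference was seen in 14 of the 20, against 2140 of 3867 named genes. Past 1.5-fold were 8 of the 20 (40%), against the background of 24.4%, and the median log2 difference was 0.16, or from 0.06 to 0.33 over the alternatives. On the lower side were, besides Rbm47, Rbm38, a p53-induced protein that controls transcript stability, with 1268 in EB and 2010 in ES (-0.66), and Rbm33, with 1844 in EB and 2855 in ES (-0.63). Rbm28, a nucleolar protein, gave -0.38. The cold-induced Rbm3 had 288 in EB and 191 in ES, under the floor, at least 1.25-fold higher. It is among the 8 counted past 1.5-fold, since counts take signals as measured, also under the floor. Rbm8a, a core protein of the exon junction complex, gave 0.34 by its brighter probe and -0.06 by its dimmer one. Rbm39, a splicing factor close to U2AF, gave 0.10 and -0.39, so the direction of these genes was not settled by their probes. Near 0 were Rbm17 (0.03), a spliceosome protein, and Rbm19 (0.02), which acts in ribosome assembly.

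**Figure D3:**
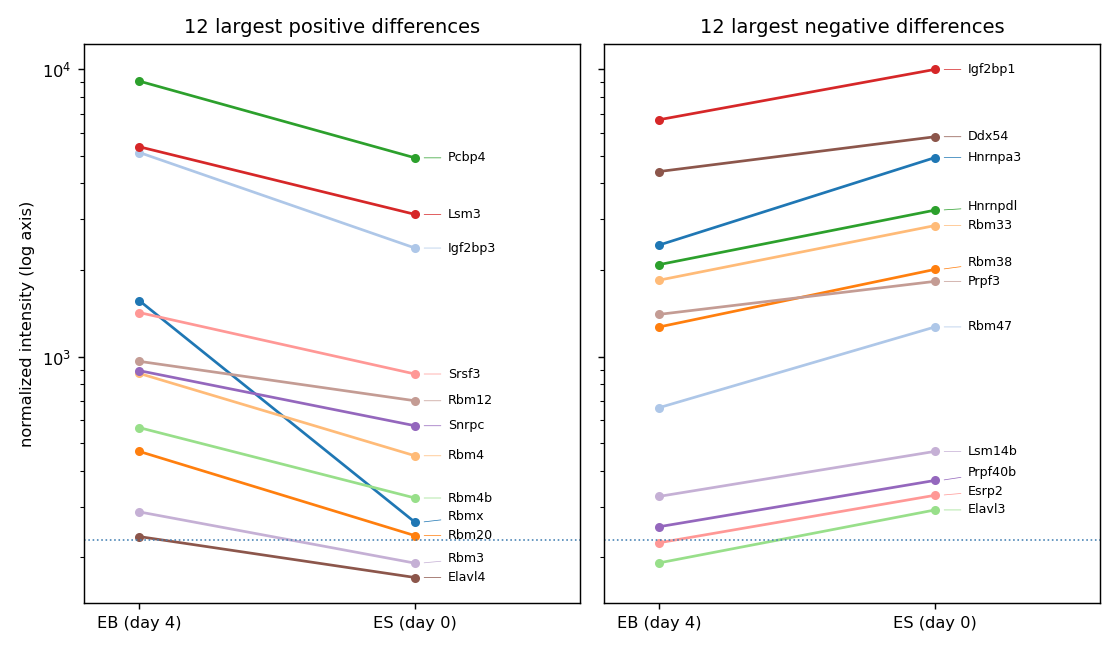
Normalized intensity (log axis) of the 12 genes with the largest positive (left) and the 12 with the largest negative differences (right), EB at left and ES at right in each panel; the dotted line is the signal floor. The line of Rbmx is the steepest, with 1564 in EB and 265.1 in ES, and Elavl4 and Rbm3 are under the floor in ES while Elavl3 and Esrp2 are under it in EB.

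All 5 measured SR proteins were above the floor, and 4 had a positive difference, against 2140 of 3867 named genes. Their median was 0.23. Srsf3, the smallest of these serine- and arginine-rich splicing activators, had 1422 in EB and 869 in ES, a log2 difference of 0.71 (bead-level standard error 0.10). Srsf10 gave 0.42 from signals near the floor, 350 in EB and 262 in ES. Srsf2 gave 0.23 and Srsf1 0.14, both bright, and Srsf5 gave -0.07. Past 2-fold were 0 of 5, against the background of 9.08%, and past 1.5-fold 1 of 5 (20%), Srsf3, close to the background of 24.4%.

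Of 17 measured hnRNP genes, which coat nascent transcripts and often repress splice sites, 13 were above the floor, 7 with a positive and 6 with a negative difference (median 0.10, or from -0.01 to 0.13 over the alternatives). Hnrnpdl, a relative of hnRNP D, had 2089 in EB and 3231 in ES, 1.55-fold lower (-0.63, standard error 0.06). Its second probe was at background in both samples. Hnrnph1 was higher by both probes above the floor (0.32 and 0.54). Smaller differences were found for the others named here. Hnrnpll, which switches CD45 exons in lymphocytes, gave 0.29, Hnrnpm 0.27, Hnrnpc 0.11, Hnrnpk -0.08 and Hnrnpu -0.22. Hnrnpab had nearly equal signals, 27975 in EB and 28192 in ES.

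Of 6 PTB and KH-domain genes 4 were above the floor, all with a positive difference, against 2140 of 3867 named genes. Their median was 0.40, against 0.06 over all named genes. Past 2-fold were 0 of 4, against the background of 9.08%, and past 1.5-fold 1 of 4 (25%), close to the background of 24.4%. Besides Pcbp4, Khdrbs1, known as Sam68, gave 0.44 and 0.41 by its probes, with 1964 in EB and 1453 in ES for the brighter. Ptbp1, the repressor of neuronal exons in cells outside the nervous system, had 5463 in EB and 4260 in ES (0.36), and Pcbp2 gave 0.19. The neuronal paralog Ptbp2 was under the floor in both samples. Ptbp3 was also under it.

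Of 10 Sm and snRNP genes 8 were above the floor (4 positive, 3 negative, median 0.11). Snrpc, the U1-C protein of the particle that reads the 5′ splice site, had 893 in EB and 574 in ES (0.64, standard error 0.07). Snrpb, which encodes the Sm protein B, gave 0.38 and 0.71 by its 2 probes. Its imprinted paralog Snrpn gave -0.31 and -0.07, with 4625 in EB and 5746 in ES for the brighter. Snrpa, the U1-A protein, gave -0.23 by its brightest probe, the ring protein Snrpf -0.25, Snrpd2 0.24 and Snrpd3 0.22. Snrpg had the same signal in both samples, 24899, after quantile normalization, and a log2 difference of 0.11 without it.

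Among factors of the 3′ splice site and branch point the 2 subunits of U2AF differed in sign: the small subunit U2af1 had 3203 in EB and 3970 in ES (-0.31), and the large subunit U2af2 had 2566 in EB and 1973 in ES (0.38). The other probes of U2af2 were under the floor. Of the U2 particle, Sf3a1 gave -0.23 and Sf3b5 0.07. LSm genes had a median of 0.11 over 5 genes. Lsm3, a subunit of the rings on U6 RNA and on decaying mRNA, had 5365 in EB and 3122 in ES, 1.72-fold higher (0.78, standard error 0.09). Lsm7, of the same rings, gave 0.25, and Lsm14b, of cytoplasmic mRNA particles, -0.52 with 326 in EB and 468 in ES. Of 7 Prp genes 6 were above the floor and 0 passed 1.5-fold, against the background of 24.4%. Prpf3, of the U4/U6 particle, gave -0.38, its partner Prpf4 0.16, and Prpf31 was at least 1.16-fold higher, with 266 in EB and 199 in ES, under the floor. Prpf40b, a U1-associated protein, gave -0.53.

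Of 14 DEAD-box genes 8 were above the floor, 4 with a positive and 4 with a negative difference, and 0 passed 1.5-fold, against the background of 24.4%. Ddx54, a nucleolar helicase, had 4402 in EB and 5815 in ES (-0.40, standard error 0.08). Other helicases of ribosome assembly gave 0.11 (Ddx18), -0.09 (Ddx47) and -0.06 (Ddx55). Ddx6, of processing bodies, where mRNA is decapped and stored, had 442 in EB and 325 in ES (0.44). Ddx5, a splicing and transcription cofactor, gave -0.27, and the mRNA export helicases Ddx19a and Ddx19b gave 0.09 and 0.07. Of the DEAH-box genes, Dhx15, which takes spent spliceosomes apart, gave -0.20, Dhx9 0.09 and Dhx37 0.03.

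Regulators tied to tissue identity were mostly dim. Esrp2, which sets epithelial splice forms, had 225.0 in EB, under the floor, and 329 in ES, at least 1.43-fold lower. Rbfox2 had 608 in EB and 484 in ES (0.33, standard error 0.09), and Rbfox1 lay at the floor in both samples. Celf1 was lower by both probes (-0.23 and -0.13), Celf2 gave 0.08 and Celf4 -0.19. Mbnl3, Celf5 and Rbfox3 were under the floor in both samples. Among stability factors Elavl1, the widely made HuR protein that binds AU-rich RNA, had 10144 in EB and 8431 in ES (0.27). Its neuronal paralogs were near background: Elavl3 was at least 1.27-fold lower in EB, with 191.6 in EB and 293 in ES, and Elavl4 had 236 in EB and 170 in ES.

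Genes of 3′ end formation and RNA decay were close to equal. Of the cleavage factors, Cstf1 gave -0.11, Cstf3 -0.02 and Cpsf7 0.03, and Cpsf3 and Cstf2t were under the floor in both samples. Of the RNA exosome, Exosc1 gave -0.13 and Exosc6 -0.12, and Exosc10 was under the floor in both samples.

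**Figure D4:**
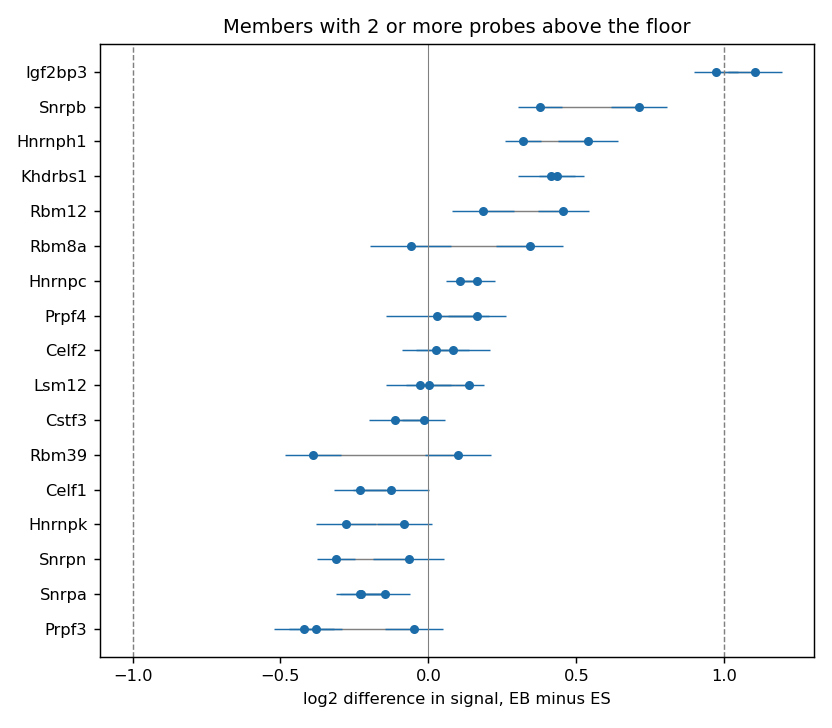
Log2 difference, EB minus ES, of each probe of the 17 genes with 2 or more probes above the floor; points on a row are probes of 1 gene and bars are 1 bead-level standard error. All probes share a sign in 14 genes, and the widest gap is 0.49 (Rbm39).

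Probes of the same gene gave a measure of disagreement that beads do not. Whether the probes of a gene read the same transcripts was not tested. In 17 genes with 2 or more probes above the floor, all probes had the same sign in 14, and the exceptions were Lsm12, Rbm39 and Rbm8a. The gap between the log2 differences of the 2 brighter probes had an SD of 0.22 in these genes. In all 447 named genes with such probes it was 0.39. The median bead-level SE of 1 probe was 0.09, but a gap holds the error of 2 probes, so the values are not directly comparable. Across these 17 genes, which are not independent replicates, the 2 probes correlated at r = 0.83. Of 30 genes with several probes and a signal above the floor, 15 had at least 1 probe under it in both arrays, among them Hnrnpa1, Hnrnpa2b1, Hnrnpa3, Hnrnpdl and Ddx5.

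Other genes of RNA metabolism, listed by role, were compared in the same way. Of 104 measured, 79 were above the floor and 1 (1.27%) passed the 2-fold limit, against the background of 9.08%, with a median log2 difference of -0.07. It was Fxr2, a relative of the fragile X protein, with 492 in EB and 1020 in ES (-1.05). Counts past 2-fold were 0 of 23 for other spliceosome genes, 0 of 17 for exon junction, decay and export genes, 0 of 8 for genes of 3′ ends and poly(A) tails, 0 of 6 for the LIN28 and let-7 pathway and 1 of 25 for other RNA-binding regulators. Past 1.5-fold were 9 of 79 (11.4%), against 24.4% of all named genes, with 3 higher (background 12.4%) and 6 lower (12%). Cdc5l, a core spliceosome protein, gave -0.75, and the stress granule protein G3bp2 -0.73. Of similar size but higher in EB were Thoc7 (0.77) and Casc3 (0.72), of the exon junction, decay and export genes. The let-7 target Hmga2 had 278 in EB and 160 in ES, under the floor, at least 1.21-fold higher. By its signals as measured it is counted among the 3 higher.

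**Figure D5:**
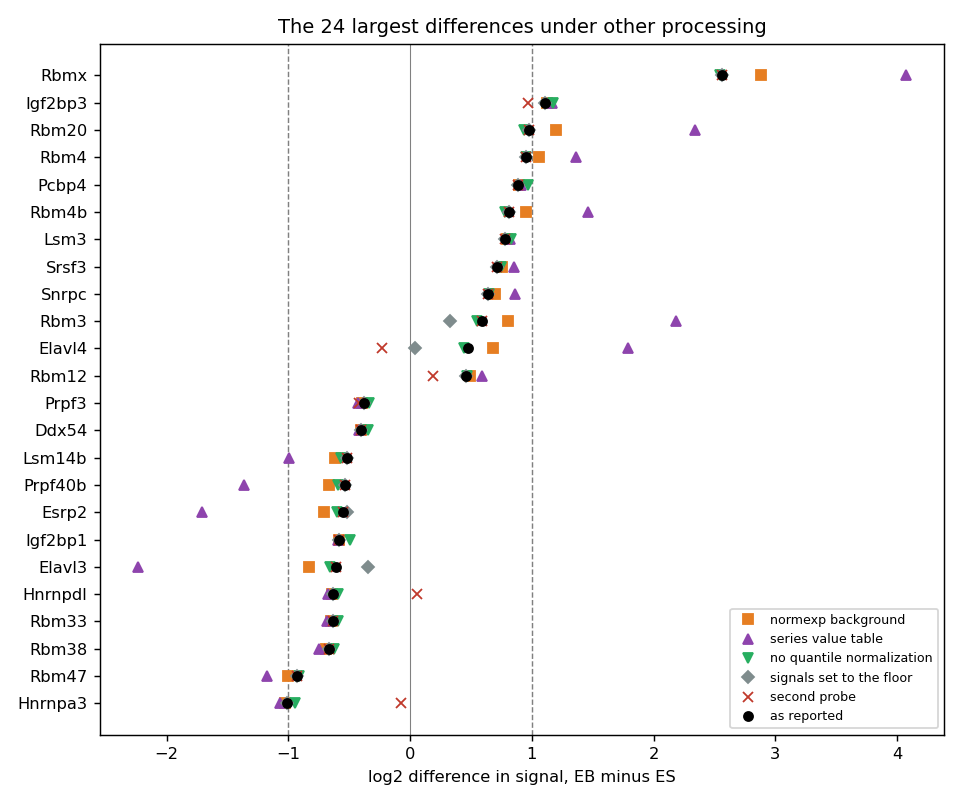
Log2 difference, EB minus ES, of the 24 genes with the largest differences as reported (black) and under other processing (coloured symbols); dashed lines mark a 2-fold difference. Rbmx stays past the limit throughout, from 2.55 to 4.07, and the series value table widens the differences of dim genes such as Rbm20 (2.34). Triangles of genes with 1 signal under the floor (Rbm3, Elavl4, Elavl3, Esrp2) have no exact size, and the second-probe cross differs from the reported point only for genes with several probes.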

How the data were processed

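Total RNA of 1 EB sample (day 4) and 1 ES sample (day 0) was measured on bead arrays. Per the file headers, deposited intensities are bead averages from BeadStudio 2.3.41 with normalization set to none. The number of beads, a count, and a bead-level spread were deposited for both samples and a detection score for EB alone. The spread is headed BEAD_STDEV, which reads as a standard deviation, for which a slope of 0 on bead number is expected. The spread fell with bead number on log scales with slopes of -0.47 in EB and -0.44 in ES (signals of at least 1000), near the -0.5 of a standard error, and was used as one. The sample titles nevertheless call the values normalised. The submitters' processing notes name BeadStudio 2, RMA and limma without their roles.

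Starting from the authors' intensities, the 2 arrays were quantile normalized without background subtraction and put on the log2 scale (Python 3.11.15, pandas 2.3.3). Zero-padded numbers of at least 10000 in the identifiers were read as Gene IDs and matched to RefSeq (9796 of 11857, 82.6%). The probe with the highest mean log2 signal stood for a gene. A gene entered counts if above the floor in either array, where the authors' score passed 0.99 in EB, and passed the size rule at 2-fold. Where the dimmer signal was under the floor, a fold is given against it as "at least". Counts past a limit do not use this bound but the signals as measured. Alternatives covered scaling, normexp (limma 3.58.1, offset 50), the authors' series value table, detection, floor, probe choice and size limit. The size rule was also run on simulated data. There only bright genes were changed, by more than the 2-fold limit, with bead-level noise alone. The run does not cover dim genes, differences near the limit or gaps between probes.

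Named genes were those past 2-fold, the 12 largest differences in each direction, the brightest, highest and lowest of each family, a preset group, genes whose probes disagreed, and up to 4 genes past 2-fold from each other list. Further genes given as examples of a family or list were chosen after their values were seen. One member enters the counts, but its own values are not reported here. Members, lists and rules were chosen with earlier results of these data known.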

Additional observations from a re-analysis of the deposited data

How the results depend on the processing

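No paired analysis was possible because there was 1 EB and 1 ES sample; leaving a sample out could not be tried either. The 3 genes past 2-fold (2 higher, 1 lower in EB) were the same 3 without a detection filter and with the looser ES detection. They were also the same above the floor in both arrays, at 2 times the floor, and with dim signals raised to the floor. The same held with a limit of 2 bead-level standard errors. None of these settings changes the values of the 3 genes or could remove them. Their signals were above the floor in both arrays, and their differences were far over 2 bead-level standard errors. Without quantile normalization, and with the mean over probes, 2 higher and 0 lower genes passed, as Hnrnpa3 gave -0.95 and -0.54. With the second probe where a gene has one, 1 gene passed (1 higher, 0 lower): Rbmx, whose 1 probe this setting cannot change. Normexp gave 6 (4 higher, 2 lower), including all 3, against 12.3% of all named genes. The series value table gave 14 (9 higher, 5 lower), including all 3, against 25.7% of named genes; how that table was made was not given and the cause was not tested. A 1.5-fold limit gave 16 (10 and 6) and a 4-fold limit 1 (1 and 0), as their construction sets. The median of the members ran from 0.03 to 0.11 over all settings. The 1 other RNA pathway gene past 2-fold became 2 with normexp, 5 with the series value table, 9 at 1.5-fold and 0 at 4-fold. Rbmx, which the probe settings cannot move, and Igf2bp3 stayed positive under the alternatives run, and Hnrnpa3 stayed negative under those that used its probe above the floor. Family medians took both signs over the alternatives for the hnRNP (-0.01 to 0.13), DEAD-box (-0.08 to 0.07), DEAH-box (-0.08 to 0.05), developmental (-0.19 to 0.05), stability (-0.16 to 0.36) and cleavage (-0.11 to 0.01) families. Depth limits the 9 genes above the floor in 1 array to a lower bound, and the 32 genes under it give no fold.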

Other observations

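The promoters of the RNA-processing genes were rich in CpG. The median ratio of observed to expected CpG was 0.90 in the windows of 103 such genes, against 0.69 in those of 6383 named genes and 0.38 in all 32851 windows, although the median GC content differed less (60%, 58% and 52.7%). Among genes above the floor the ratios were 0.92 for 76 RNA-processing genes and 0.80 for 3107 named genes. These values are descriptions and were not tested.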
